A study of Mus musculus with 4 samples.

Results

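The genes described are 8 interferon-stimulated genes, Ifit1, Ifit2, Ifit3, Isg15, Irf7, Usp18, Rsad2 and Oasl2, chosen by symbol from a list and found among 20804 genes with exon blocks in the mm9 assembly. All 8 had reads in each of the 4 libraries. The study sequenced RNA of frozen whole small intestine (jejunum, by the methods of the study) and colon (distal colon) of C57BL/6 mice aged 9 to 10 weeks that were kept free of specific pathogens, carried no engineered allele and received no agent. Each tissue was sequenced by 2 protocols on the SOLiD platform, with 1 library per tissue and protocol. In the cDNA fragmented libraries, polyadenylated RNA was copied into SMART cDNA before it was broken, so strand was lost. In the libraries labelled ribosomal RNA-depleted (rRNA-depleted), RNA was broken first with the SOLiD V2 Whole Transcriptome Analysis Kit, which keeps strand. The methods describe RNA fragmented libraries of polyadenylated RNA with longer reads, more reads and a later instrument, so the rRNA-depleted libraries used here do not match those data sets and are taken as labelled. In all, 6 mice are named in the methods, and both tissues are said to come from the same individuals. Neither source says which mice, or how many, gave each library, so protocol, mouse and library cannot be told apart, and no replicate error can be calculated for a tissue within a protocol.

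Interferons are secreted when cells sense viral nucleic acid, and their receptors signal through JAK kinases and STAT proteins to target genes, many of which carry the interferon-stimulated response element (ISRE). The type II interferon acts on another element, the gamma-activated sequence (GAS). Epithelium and immune cells of the gut hold a low, steady interferon response in healthy animals, which depends in part on the microbiota, and interferon-stimulated genes are commonly read as a group to follow it.

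The promoter sequences were searched for the core letters of the response element next to the start site. Only an exact core in a fixed window was searched, so a promoter without it is not shown to lack the element. RefSeq promoters (250 bases before to 50 after the start of each gene, from a table of build GRCm38) were available here for 7 of the 8 genes, all but Usp18, and each of the pieces below was found once in mm9. The core searched for was GAAA, any 2 bases and GAAA again, on both strands, so that it appears as TTTC, 2 bases and TTTC where it lies on the opposite strand. It occurred in 4 of the 7 promoters, in Ifit1, Ifit3, Isg15 and Rsad2, and in 1079 of 27025 genes with a promoter (3.99%). The pieces are given 5′ to 3′ on the strand of the gene, with the core in capitals and its first base counted from the start site.
Ifit1, chr19:34715265-34715294, core from -104: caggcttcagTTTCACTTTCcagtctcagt
Ifit1, chr19:34715284-34715313, core from -85: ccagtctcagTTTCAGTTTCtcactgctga
Ifit3, chr19:34657853-34657882, core from -156: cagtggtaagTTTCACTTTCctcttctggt
Ifit3, chr19:34657887-34657916, core from -122: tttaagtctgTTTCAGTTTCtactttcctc
Isg15, chr4:155574980-155575009, core from -72: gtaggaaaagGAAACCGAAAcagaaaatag
Rsad2, chr12:27141418-27141447, core from -120: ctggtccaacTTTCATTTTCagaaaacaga
In Isg15 the core occurred 3 times in overlapping positions, of which the middle one is shown. The GAS letters, TTC, any 3 bases and GAA, which read the same on both strands, occurred in 1 of the 7 promoters, that of Ifit2, from -241, and in 9.55% of all genes with a promoter. Neither set of letters was found in these windows of Irf7 and Oasl2. Among 47 other interferon-stimulated genes with a promoter, 22 held the ISRE core, as did 8 of 13 interferon-gamma induced genes. The GAS letters occurred in 8 of those 47 and in 5 of those 13 promoters.

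Uniquely placed reads numbered 22484041 in the cDNA fragmented small intestine library, 24798934 in the cDNA fragmented colon library, 2035386 in the rRNA-depleted small intestine library and 3478387 in the rRNA-depleted colon library, so values of the rRNA-depleted libraries rest on fewer reads. The labelled tissues were borne out by their markers. All 8 enterocyte genes (such as lactase, Lct) were more than 3-fold higher in small intestine by both protocols, and 7 and 8 of 8 colonocyte genes (such as Car1) were more than 3-fold higher in colon by cDNA fragmentation and in the rRNA-depleted libraries. The libraries differed in pancreatic acinar genes (9 genes, all with reads in 3 libraries, and 5 of them at 0 in the cDNA fragmented small intestine library), whose summed level was 326 RPKM in the cDNA fragmented small intestine library and 699 RPKM in the colon library, against 3278 RPKM and 20.9 RPKM in the rRNA-depleted ones. Of them, 8 were more than 3-fold higher in colon by cDNA fragmentation, and all 9 were more than 3-fold higher in small intestine in the rRNA-depleted libraries. The part of these differences in the results below was not tested.

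Levels are given as reads per kilobase of exon and 1000000 uniquely placed reads (RPKM), which allows genes of different length to be compared, with exact Poisson intervals at the 95% level that cover counting error only. The members were described by role, beginning with the Ifit family, proteins with tetratricopeptide repeats that bind viral RNA. Ifit1 (ENSMUSG00000034459.8, chr19:34715379-34724499, plus strand), which binds RNA with an incompletely methylated cap, was at 46.7 RPKM (interval 44.9 to 48.4, 2768 reads) in cDNA fragmented small intestine, 52.9 RPKM (51.1 to 54.7, 3458 reads) in cDNA fragmented colon, 26.4 RPKM (22.3 to 31.2, 142 reads) in rRNA-depleted small intestine and 16.2 RPKM (13.7 to 19.1, 149 reads) in rRNA-depleted colon. Its level was thus higher in both cDNA fragmented libraries than in the rRNA-depleted ones, with no overlap of the intervals. Ifit2 (ENSMUSG00000045932.6, chr19:34625184-34651024, plus strand), a partner of Ifit1 and Ifit3, was at 5.24 RPKM (465 reads) and 9.47 RPKM (927 reads) in small intestine and colon by cDNA fragmentation, and at 1.24 RPKM (10 reads) and 1.09 RPKM (15 reads) in the rRNA-depleted ones. Ifit3 (ENSMUSG00000074896.3, chr19:34658019-34663472, plus strand), which stabilises the binding of Ifit1 to RNA, was at 4.54 RPKM (204 reads) and 8.17 RPKM (405 reads) in the same order of cDNA fragmented libraries and at 0.738 RPKM (3 reads) and 0.576 RPKM (4 reads) in the rRNA-depleted ones. Both were thus low throughout, and the 3 reads of Ifit3 lie at the floor of 3 reads that was set per library.

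The level of Ifit3 is uncertain, since 55.8% of its 1930 windows of 35 bases occurred exactly in exons of another gene. With 1 base changed, 76.8% did, nearly all of them in I830012O16Rik, a close copy of Ifit3. Reads that fit both equally had been left out as not uniquely placed, which lowers the count, and reads of the copy could be counted on Ifit3, which raises it. The net effect was not tested. In the cDNA fragmented libraries, 38.7% and 34.8% of the reads of Ifit3 in small intestine and colon had at most 1 mismatch, against 63.5% and 59.4% of the reads of all 8 genes together. For Ifit1, 9.69% of the windows recurred exactly, and with 1 base changed the largest share of the repeats lay in 2010002M12Rik. The corresponding share was below 0.3% in the other members, and no window recurred exactly in Ifit2, Isg15, Irf7 and Usp18.

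Isg15 (ENSMUSG00000035692.6, chr4:155573533-155574927, minus strand) encodes a ubiquitin-like modifier that is joined to newly made proteins. It was at 37.7 RPKM (34.8 to 40.7, 641 reads) and 38.8 RPKM (36.0 to 41.7, 727 reads) in cDNA fragmented small intestine and colon, and at 20.8 RPKM (14.2 to 29.4, 32 reads) and 8.75 RPKM (5.54 to 13.1, 23 reads) in the rRNA-depleted libraries. Usp18 (ENSMUSG00000030107.9, chr6:121195924-121220935, plus strand), the protease that removes ISG15 and also restrains the type I interferon receptor, was at 36.4 RPKM (34.6 to 38.4, 1451 reads) and 24.1 RPKM (22.6 to 25.6, 1057 reads) by cDNA fragmentation, and at 8.88 RPKM (6.07 to 12.5, 32 reads) and 3.73 RPKM (2.37 to 5.6, 23 reads) in the rRNA-depleted libraries. The tissues overlapped in Isg15 by cDNA fragmentation only, and Usp18 was higher in small intestine by both protocols.

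Irf7 (ENSMUSG00000025498.7, chr7:148449088-148452300, minus strand) encodes the transcription factor that amplifies type I interferon production. It was at 31.0 RPKM (29.4 to 32.8, 1277 reads) in cDNA fragmented small intestine and at 142 RPKM (139 to 146, 6450 reads) in cDNA fragmented colon, whereas in the rRNA-depleted libraries small intestine was at 63.9 RPKM (56.0 to 72.6, 238 reads) and colon at 73.2 RPKM (66.7 to 80.2, 466 reads). The rRNA-depleted values lay between those of the cDNA fragmented libraries, and their intervals overlapped each other. Irf7 was the member with the highest level in 3 of the 4 libraries, the exception being cDNA fragmented small intestine, where 4 members were higher.

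Of the antiviral effectors, Rsad2 (ENSMUSG00000020641.8, chr12:27127608-27141317, minus strand), which encodes viperin, an enzyme that makes a chain-terminating nucleotide, was at 4.36 RPKM (371 reads) and 8.61 RPKM (808 reads) in cDNA fragmented small intestine and colon, and at 3.25 RPKM (25 reads) and 4.48 RPKM (59 reads) in the rRNA-depleted ones. Oasl2 (ENSMUSG00000029561.10, chr5:115346943-115362254, plus strand), a member of the oligoadenylate synthetase family with ubiquitin-like domains, was at 48.6 RPKM (47.0 to 50.3, 3429 reads) and 32.1 RPKM (30.9 to 33.4, 2500 reads) by cDNA fragmentation, and at 40.7 RPKM (35.9 to 46.0, 260 reads) and 20.1 RPKM (17.5 to 22.9, 219 reads) in the rRNA-depleted libraries. Oasl2 was higher in small intestine by both protocols without overlap of the intervals.

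**Figure D1:**
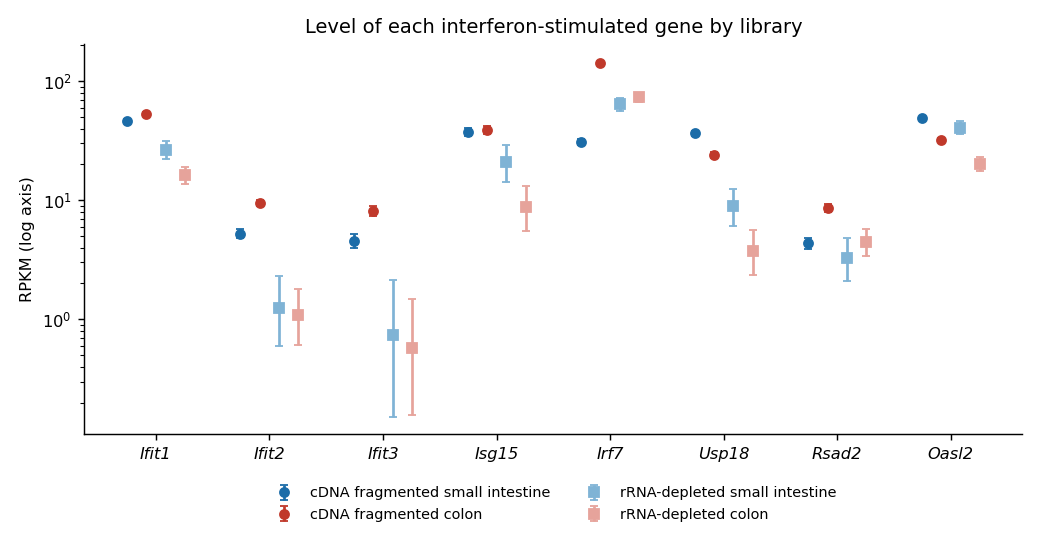
Level of each of the 8 genes in RPKM (log axis) in the 4 libraries, with exact Poisson intervals at the 95% level. Ifit1, Isg15, Irf7, Usp18 and Oasl2 lie above 20 RPKM in both cDNA fragmented libraries, and Ifit2, Ifit3 and Rsad2 lie below 10 RPKM in every library.

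In the order of levels, Oasl2 and Ifit1 led in cDNA fragmented small intestine with overlapping intervals, followed by Isg15 and Usp18, which overlapped too, then by Irf7, and by Ifit2, Ifit3 and Rsad2 at a distance. In cDNA fragmented colon, Irf7, Ifit1, Isg15, Oasl2 and Usp18 followed each other with no overlap between neighbours, and Ifit2, Rsad2 and Ifit3 formed the low end with overlaps. In the rRNA-depleted small intestine library, Irf7 was followed by Oasl2, then by Ifit1 and Isg15, which overlapped, and by Usp18, below which neighbours overlapped. In rRNA-depleted colon, Irf7 was followed by Oasl2 and Ifit1, which overlapped, then by Isg15, Rsad2 and Usp18, which overlapped in turn, and Ifit2 and Ifit3 were lowest. The summed level of the 8 genes was 215 RPKM in cDNA fragmented small intestine and 316 RPKM in colon, and 166 RPKM and 128 RPKM in the rRNA-depleted libraries. The sum thus pointed to colon by cDNA fragmentation, where Irf7 alone made up 142 RPKM, and to small intestine in the rRNA-depleted libraries.

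To ask which of the genes differ between the tissues, RPKM values were divided within each protocol, and a gene was called when it passed the study's rule of a 3-fold difference after 1 RPKM had been added to the divisor. By cDNA fragmentation, Irf7 was the 1 member called, at 4.58 times (exact binomial interval 4.31 to 4.87) the small intestine level in colon. Over all genes present, 976 of 16470 (5.93%) were called in either direction, 3.2% as higher in colon and 2.73% as higher in small intestine. Rsad2 was 1.97 times (1.74 to 2.24), Ifit2 1.81 times (1.62 to 2.02) and Ifit3 1.80 times (1.52 to 2.14) as high in colon. Usp18 was at 0.660 times (0.610 to 0.715) and Oasl2 at 0.661 times (0.628 to 0.696) the small intestine level in colon. Ifit1 was at 1.13 times (1.08 to 1.19), and the interval of Isg15 included equality (1.03, 0.923 to 1.15). The members therefore differed in direction among themselves. In bulk tissue, fewer cells of a type and less RNA per cell cannot be told apart.

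These ratios have to be read against the ratio of all genes. By cDNA fragmentation, the median log2 ratio (colon over small intestine) was 0.40 over 14106 genes with at least 20 reads over the pair, and 0.51 over the 8 members. Relative to this median, Irf7, Rsad2, Ifit2 and Ifit3 were on the colon side and the other 4 genes on the small intestine side. With TMM factors, which centre most genes, the log2 ratio of Ifit1 was -0.17 and that of Isg15 was -0.31, so that their direction is turned by the scaling, while the other members kept theirs. The calls over all genes were 527 higher in colon and 449 higher in small intestine with library totals, and 406 and 600 with TMM factors.

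In the rRNA-depleted libraries no member passed the 3-fold rule, against 10.3% of 15060 genes present (6.61% as higher in colon and 3.69% as higher in small intestine). Isg15 and Usp18 were each at 0.421 times (0.235 to 0.742) the small intestine level in colon, Oasl2 at 0.493 times (0.410 to 0.592) and Ifit1 at 0.614 times (0.485 to 0.778). The intervals of Irf7 (1.15, 0.978 to 1.35), Rsad2 (1.38, 0.852 to 2.30), Ifit2 (0.878, 0.369 to 2.18) and Ifit3 (0.780, 0.132 to 5.33) included equality. The median log2 ratio was -0.53 over the 8 members and 0.40 over 11852 genes, so the members lay on the small intestine side of the median of all genes, except Rsad2, whose log2 ratio of 0.47 was near it. The 11852 genes had at least 20 reads over the pair, which Ifit3 did not, and the median over the other 7 members was -0.70. With TMM factors the direction of Irf7 turned (log2 ratio -0.18), and those of the other 7 genes were kept. Over all genes, 996 were called as higher in colon and 555 as higher in small intestine, against 551 and 726 with TMM factors.

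**Figure D2:**
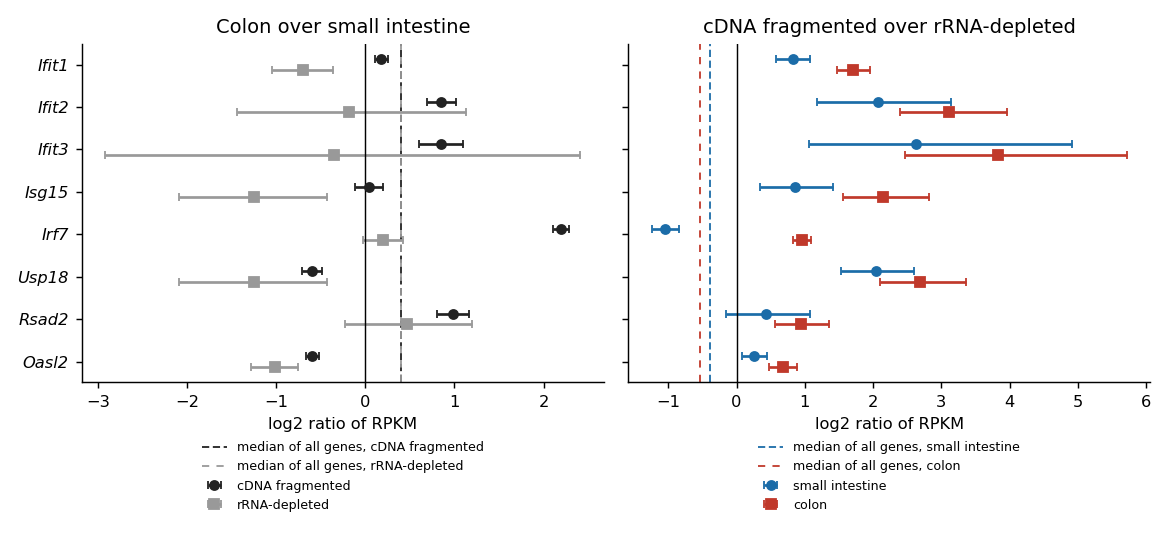
Log2 ratios of RPKM for the 8 genes between the tissues (left) and between the protocols (right), with exact binomial intervals at the 95% level; dashed lines mark the median of all genes with at least 20 reads over the pair. Irf7 stands at a log2 ratio of 2.20 in colon against small intestine by cDNA fragmentation and at 0.20 in the rRNA-depleted libraries.

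The tissue ratio by cDNA fragmentation was divided by that of the rRNA-depleted libraries to see how far the protocols differed. The quotient was above 1 in each of the 8 genes, as it was in 46.5% of 11647 genes with reads in all libraries and at least 20 over each pair. Ifit3, with 3 and 4 reads in the rRNA-depleted pair, falls short of those 20 reads. The interval lay above 1 in 4 of the 8 genes and in 24.6% of the 11647 genes, and below 1 in 29.3% of the 11647. The quotient was 4.0 (interval from the 4 counts 3.38 to 4.72) in Irf7, 2.44 (1.42 to 4.22) in Isg15, 1.84 (1.46 to 2.33) in Ifit1 and 1.34 (1.11 to 1.62) in Oasl2. The intervals included 1 in Ifit2, Ifit3, Usp18 and Rsad2, whose quotients ran from 1.43 to 2.31. Counted by start points, an alternative added after seeing the data, the quotient of Irf7 was 2.38 (1.86 to 3.04), that of Ifit3 was 1.27 (0.231 to 7.02) and that of Usp18 was 2.66 (1.25 to 5.66). These intervals hold counting error only, and with 1 library of each kind a test of the difference against replicate error could not be made.

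All 4 libraries entered a limma fit with protocol as a term, which leaves 1 residual degree of freedom and takes the spread largely from all genes. Oasl2 was lower in colon, with a log2 difference of -1.15 (SE 0.40) and a limma adjusted p of 0.0387, and was the 1 of 8 members called. Over all genes tested, 2166 of 14135 (15.3%) were called, 964 as higher (6.82%) and 1202 as lower (8.5%) in colon, and with library totals instead of TMM factors the split was 1440 and 719. The call of Oasl2 was lost with median-of-ratios factors (limma adjusted p 0.0538), with no filter on low counts (0.0889), with at most 1 mismatch (0.0677), with library totals (0.187) and with no protocol term (1.0). It was kept by start points (limma adjusted p 0.0389) and with unweighted values (0.040), and the log2 difference lay between -1.17 and -0.79 under these 7 alternatives. The other members did not pass, with limma adjusted p of 0.0973 for Usp18 (log2 difference -1.13, SE 0.47), 0.141 for Irf7 (0.91, SE 0.42) and between 0.41 and 0.79 for the remaining 5.

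The value of Irf7 in this fit joins unlike pairs. On the same scale, the log2 difference was 1.84 in the cDNA fragmented pair alone and -0.18 in the rRNA-depleted pair alone. For Oasl2 these values were -0.95 and -1.40, and for Usp18 they were -0.95 and -1.62, so both genes were lower in colon in either pair. In the cDNA fragmented pair, the difference of Irf7 was the largest of the 8.

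The libraries of the same tissue were compared next. In small intestine, Usp18 was the 1 member called, at 4.10 times (2.89 to 6.02) the rRNA-depleted level in the cDNA fragmented library, whereas 3 members (with Ifit2 and Ifit3) were called with TMM or median-of-ratios factors, by start points or with a penalty of 0.1 RPKM. Of 15776 genes, 19.9% were called in either direction, 8.25% as higher by cDNA fragmentation and 11.6% as lower. Ifit3 (6.16 times, 2.08 to 30.1) and Ifit2 (4.21 times, 2.27 to 8.84) had larger ratios but are low in RPKM, so that the 1 RPKM added to the divisor kept them below the rule. Ifit1 was at 1.76 times, Isg15 at 1.81 times and Oasl2 at 1.19 times, each with an interval above 1, and Rsad2 at 1.34 times with an interval that included it (0.896 to 2.10). Irf7 was at 0.486 times (0.423 to 0.560) and was the 1 member with a lower level by cDNA fragmentation.

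In colon, 5 of the 8 genes were called, all as higher by cDNA fragmentation, where 20.1% of 16344 genes were called in either direction, 7.79% as higher by cDNA fragmentation and 12.3% as lower. Ifit3 was at 14.2 times (5.50 to 52.4), Ifit2 at 8.67 times (5.23 to 15.6), Usp18 at 6.45 times (4.27 to 10.2), Isg15 at 4.43 times (2.93 to 7.04) and Ifit1 at 3.26 times (2.76 to 3.86) the rRNA-depleted level. Irf7 (1.94, 1.77 to 2.14), Rsad2 (1.92, 1.47 to 2.55) and Oasl2 (1.60, 1.39 to 1.85) were higher by cDNA fragmentation too, below the rule. With TMM factors Irf7 was called as well, so that 6 members passed. The median log2 ratio was 1.93 over the members against -0.54 over 13822 genes in colon, and 0.84 against -0.39 over 12764 genes in small intestine. With TMM factors the split of calls over all genes turned from 1301 higher and 1831 lower by cDNA fragmentation to 2328 and 1084 in small intestine, and from 1273 and 2009 to 2067 and 913 in colon. The direction of every member, including the lower level of Irf7 in small intestine (log2 ratio -0.38 with TMM factors), was the same under library totals, TMM factors and median-of-ratios factors in both tissues.

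The reads behind the counts were then examined. In the rRNA-depleted libraries, 98.8% (Wilson interval 97.7% to 99.4%) of the reads of the 8 genes in small intestine and 99.9% (99.4% to 100%) in colon lay on the strand of the gene, and in the cDNA fragmented libraries 48.4% and 47.9% did, which is near the shares of all genes (98.4% in both rRNA-depleted libraries, and 48.3% and 48.2%). Isg15 in rRNA-depleted small intestine was the exception, with 26 of 32 reads on its strand (81.2%, 64.7% to 91.1%). By its 24 start points the share was 91.7%, and among its reads with at most 1 mismatch it was 93.3%, so the exception rests on few positions. The reads of the 8 genes thus came from the genes' own strand where strand was kept.

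Beyond the midpoint of the exon length, towards the 3′ end, lay 60.1% of the members' reads in small intestine and 55.4% in colon by cDNA fragmentation, and 59.3% and 55.2% in the rRNA-depleted libraries. Among the genes with more than 100 reads in each library, Oasl2 had between 71.0% and 73.5% of its reads beyond the midpoint in all 4 libraries. Ifit1 had 51.6% (49.8% to 53.5%) and 44.7% (43.1% to 46.4%) there by cDNA fragmentation and 40.1% (32.4% to 48.4%) and 32.2% (25.2% to 40.1%) in the rRNA-depleted libraries. All 23 reads of Usp18 in rRNA-depleted colon lay beyond the midpoint, from 10 start points, and 8 of them began at the same position, so that the ratio of 0.421 for Usp18 rests on few positions.

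**Figure D3:**
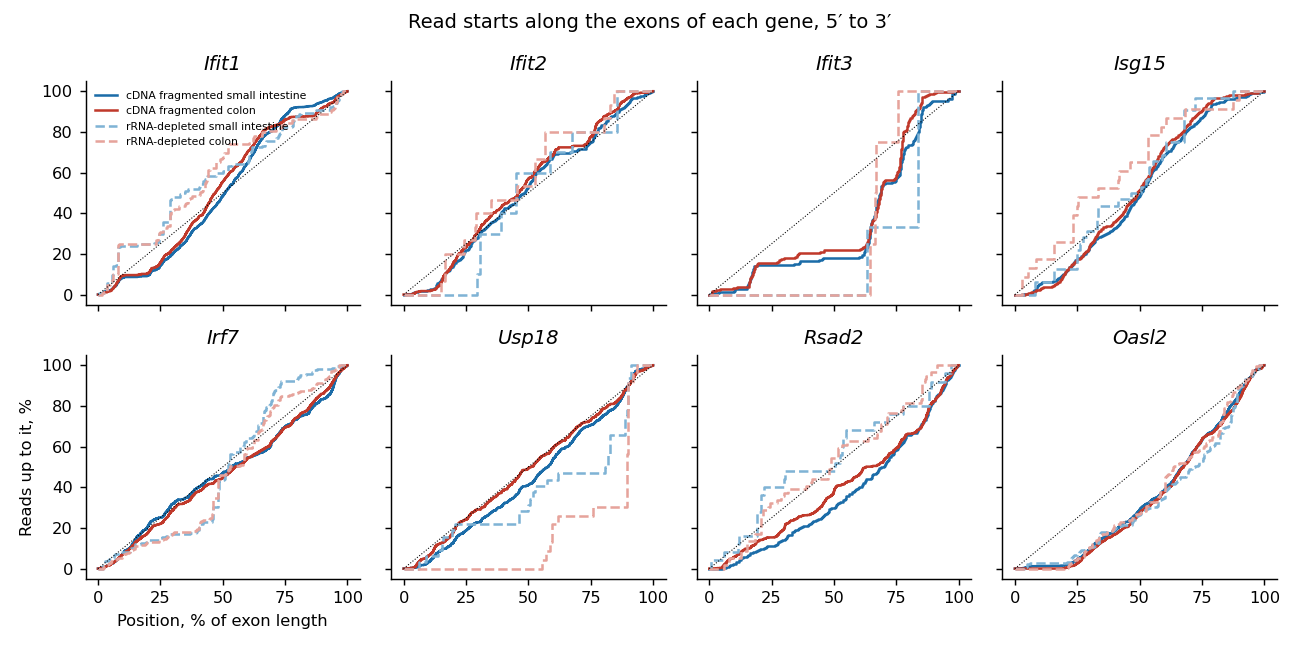
Cumulative share of reads (%) along the exon length of each gene from 5′ to 3′ (%), by library; the dotted diagonal marks even coverage. Oasl2 follows 1 course in all libraries, Ifit3 has 81.9% and 78.0% of its cDNA fragmented reads from small intestine and colon beyond the midpoint, and Usp18 in rRNA-depleted colon has none before it.

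The high ratio of Irf7 by cDNA fragmentation was not carried by a single stretch. In each of the 9 exon blocks with reads, the level in colon was between 3.85 and 6.97 times that in small intestine, with lower bounds of 3.04 or more, and the first block, of 12 bases, had no reads. In the rRNA-depleted libraries, 7 of the 9 blocks had an interval that included equality. The sixth block was at 0.657 times (0.464 to 0.933, 65 and 73 reads in small intestine and colon), and the last block was at 5.85 times (2.12 to 22.5, 4 and 40 reads). The most used start point of Irf7 held 8.82% and 9.01% of its reads in rRNA-depleted small intestine and colon, and 1.02% and 0.543% in the cDNA fragmented libraries.

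Reads that begin at the same base on the same strand share a start point, as repeated copies of an amplified fragment do. The 6450 reads of Irf7 in cDNA fragmented colon began at 2269 start points, which is 62.0% of all those possible in its exons, and the 1277 reads in small intestine at 940 (25.7%). Counted by start points, Irf7 was 1.21 on the log2 scale in colon against small intestine, and was no longer called. As the share of positions in use rises, start points understate the number of fragments. In the other members, reads per start point ranged from 1.0 to 2.3 over the libraries, against 1.36 to 2.84 in Irf7.

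**Figure D4:**
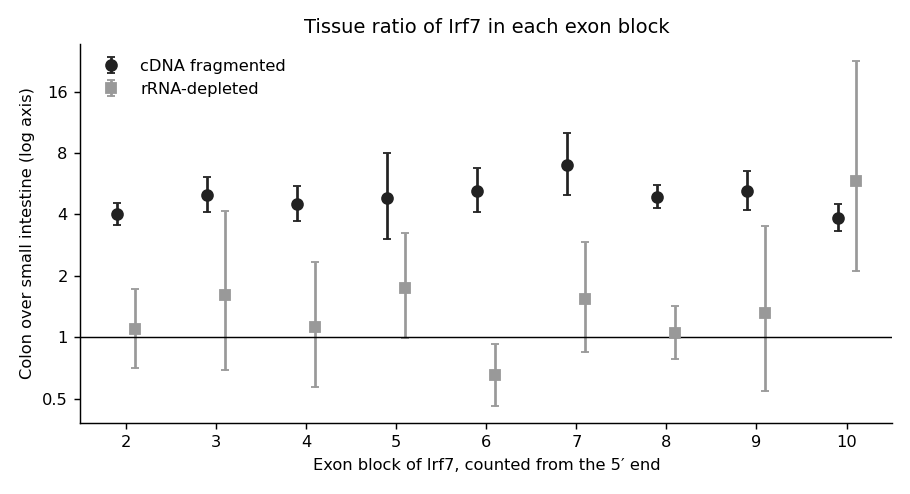
Ratio of colon to small intestine of Irf7 (log axis) in exon blocks 2 to 10, counted from the 5′ end, for both protocols, with exact binomial intervals at the 95% level. By cDNA fragmentation each block lies above 3, and in the rRNA-depleted libraries most intervals include 1.

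The pathway around the 8 genes was read from lists of its other parts. Of 6 interferon ligand genes (Ifnb1, Ifng, Ifnk, Ifne, Il28a and Il28b), none had enough reads to be tested, and Ifne and Il28b had none in any library. Ifng, the type II interferon made by lymphocytes, had 13 reads in cDNA fragmented small intestine and 2 in colon, 0 reads in rRNA-depleted small intestine and 2 in colon, and Ifnb1 had 1 read in all. Transcripts of these 6 ligands were thus barely detectable at this depth, where the floor of 3 reads applies per library. Interferon-alpha genes were not in the list.

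Over all genes tested by limma, 8.5% were called as lower and 6.82% as higher in colon, against which the counts of the lists that follow are to be read. The receptors were well covered, and none of the 6 was called by limma (0 of them at an unadjusted p under 0.05). Ifngr1, a chain of the type II receptor, was highest on average over the libraries, at 90.4 RPKM and 145 RPKM in cDNA fragmented small intestine and colon and at 73.7 RPKM and 183 RPKM in the rRNA-depleted ones (limma adjusted p 0.334). Among the signal transducers, the kinase gene Jak2 was lower in colon (log2 difference -1.42, SE 0.39, limma adjusted p 0.00520). It was at 17.8 RPKM and 7.94 RPKM by cDNA fragmentation and at 79.0 RPKM and 41.2 RPKM in the rRNA-depleted ones, and was thus lower in colon in either pair. This call was lost with library totals as normalization.

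None of 7 other interferon regulatory factors was called by limma (3 of them at an unadjusted p under 0.05), although 1 was called as lower in colon by start points, and their median log2 difference was -0.40. Irf1, the highest of them on average over the libraries, was between 62.2 RPKM and 68.7 RPKM in all 4 libraries. Among 13 sensors of nucleic acid and their adaptors, 2 were lower in colon, the RNA sensor gene Ddx58 (RIG-I, log2 difference -2.32, SE 0.47, limma adjusted p 8.9e-05) and the kinase gene Tbk1 (-1.54, SE 0.43, limma adjusted p 0.00591), and none was higher. This share of the list is near that of all genes called in either direction (15.3%), and with library totals 1 of the 13 was called. Ddx58 was at 13.3 RPKM and 5.22 RPKM by cDNA fragmentation and at 11.1 RPKM and 1.11 RPKM in the rRNA-depleted libraries.

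Of the 4 genes that join ISG15 to proteins, 2 were lower in colon, where 8.5% of all genes tested were. Ube2l6, the conjugating enzyme, was at 161 RPKM and 38.2 RPKM in cDNA fragmented small intestine and colon and at 62.8 RPKM and 13.7 RPKM in the rRNA-depleted libraries (log2 difference -2.48, SE 0.43, limma adjusted p 3.66e-06). Herc6, the ligase, was lower too (-1.65, SE 0.46, limma adjusted p 0.00620), and Uba7 and Trim25 did not pass (limma adjusted p 0.280 and 0.172). With library totals as normalization, 1 of the 4 was called.

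Among 58 other interferon-stimulated genes tested, 19 were lower and 3 were higher in colon, with a median log2 difference of -0.72 against 0.02 over all genes tested, where 8.5% were called as lower and 6.82% as higher. With library totals, which move the median of all genes to 0.38, 8 were lower and 3 were higher. By the 3-fold rule within each protocol, 5 were lower and 2 higher in colon by cDNA fragmentation, and 6 were lower and 5 higher in the rRNA-depleted libraries. Over all genes this rule called 2.73% as lower and 3.2% as higher by cDNA fragmentation, and 3.69% and 6.61% in the rRNA-depleted libraries. Lgals9, which encodes galectin-9, was at 477 RPKM and 192 RPKM by cDNA fragmentation and at 329 RPKM and 115 RPKM in the rRNA-depleted libraries (log2 difference -1.78, SE 0.39, limma adjusted p 0.000343). The chemokine gene Cxcl9 had the largest negative difference of this list, at 5.56 RPKM and 0.50 RPKM by cDNA fragmentation (-3.47, SE 0.61, limma adjusted p 4.81e-06). The 3 genes that were higher in colon were Isg20, which encodes an exonuclease (2.95, SE 0.58, limma adjusted p 5.36e-05), Tor3a (1.76, limma adjusted p 0.00307) and Ifi27l2a (1.58, limma adjusted p 0.0161). Isg20 was at 3.69 RPKM and 27.4 RPKM by cDNA fragmentation and at 0.420 RPKM (1 read) and 17.7 RPKM (72 reads) in the rRNA-depleted libraries. Tor3a and Ifi27l2a were named after their values had been seen.

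Of 18 genes tested from the list of interferon-gamma induced GTPases and antigen processing genes, 12 were lower in colon and none was higher. Their median log2 difference was -1.76, and over all genes tested 8.5% were lower and 6.82% higher. Which interferon acts on these genes here was not tested. With library totals 9 were lower, and by the 3-fold rule 4 were lower by cDNA fragmentation and 5 in the rRNA-depleted libraries, with none higher in either, where 2.73% and 3.69% of all genes were lower by that rule. The immunoproteasome gene Psmb8 was at 180 RPKM and 38.8 RPKM in cDNA fragmented small intestine and colon and at 26.1 RPKM and 2.59 RPKM in the rRNA-depleted libraries (-2.85, SE 0.48, limma adjusted p 1.86e-06). The GTPase gene Iigp1 was at 18.0 RPKM and 2.31 RPKM and at 4.57 RPKM and 0.553 RPKM in the same order (-3.31, SE 0.52, limma adjusted p 3.22e-07). Beside these, B2m, the light chain of the class I complex, was lower (-1.83, SE 0.39, limma adjusted p 0.000230), and Psmb10 and Tapbp did not pass (limma adjusted p 0.357 and 0.0520). With no protocol term, limma called no gene of any of these lists and none of the whole table, where 762 genes had an unadjusted p under 0.05.

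**Figure D5:**
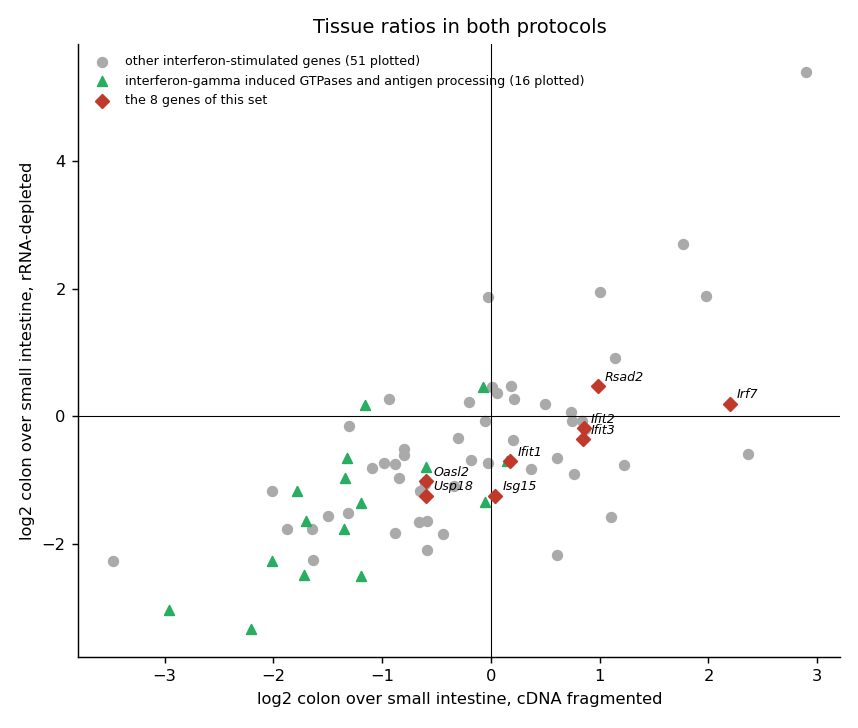
Log2 ratio of colon to small intestine by cDNA fragmentation (horizontal) and in the rRNA-depleted libraries (vertical) for the 8 genes (red), other interferon-stimulated genes (grey) and interferon-gamma induced genes (green) with at least 20 reads over each pair; Ifit3 is drawn with 7 reads in the rRNA-depleted pair. Usp18 and Oasl2 lie below 0 on both axes, as most of the interferon-gamma induced genes do, and Irf7 lies to the right at a vertical value of 0.20.

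Markers of other cells in the tissue differed between the libraries too, in either direction. Of 7 T cell genes, 6 were lower in colon, and their summed level was 99.2 RPKM and 22.2 RPKM in cDNA fragmented small intestine and colon and 23.9 RPKM and 9.56 RPKM in the rRNA-depleted libraries. Of 7 B and plasma cell genes, 2 were lower in colon, and none was called with library totals. Their summed level was 3473 RPKM and 393 RPKM in small intestine and colon by cDNA fragmentation, but 370.3 RPKM and 391.7 RPKM in the rRNA-depleted libraries, so the pairs did not share a direction. Of 8 macrophage genes, Cd14 was higher in colon and the other 7 were not called, with summed levels of 97.1 RPKM and 121 RPKM by cDNA fragmentation and 61.5 RPKM and 122 RPKM in the rRNA-depleted libraries. Of 7 genes of the plasmacytoid dendritic cell list tested, 2 were lower (Ccr9 and Runx2) and 1 was higher (Klk1). Siglech, which defines that cell, was low in every library, at 0.269 RPKM to 1.20 RPKM. Of 7 smooth muscle genes, 6 were higher in colon, and among 8 epithelial genes Krt19 was higher and Vil1 and Krt20 were lower. The part of these cells in the levels of the 8 genes was not tested.

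Genes whose pattern over the 4 libraries was most like the mean of the members were found by the distance between log2(RPKM + 1) profiles centred on their own mean, among 8218 genes with at least 20 reads in every library. The nearest were Rnf6 (distance 0.125), Aptx (0.165), Anapc5 (0.166), 2810002N01Rik (0.178) and Clk4 (0.182). Rnf6 was at 27.5 RPKM and 38.6 RPKM by cDNA fragmentation and at 17.5 RPKM and 11.3 RPKM in the rRNA-depleted libraries. The members' own distances ran from 0.246 in Ifit1, the member nearest to the mean of the 8 genes, to 1.81 in Irf7, the farthest from it. The median distance over the genes compared was 2.15. Each member is part of the mean, which draws its distance down, and members were not held to 20 reads in every library. Their distances are therefore not on equal terms with that median.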

How the data were processed

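The authors matched 35 colors per SOLiD read to RefSeq exons of mm9 and to exon-exon junctions with up to 3 mismatches, and deposited the positions, strands and mismatches of uniquely placed reads, with no table of expression values. Per the file headers, exon positions are those of mm9, and matching to the exome was by a run named corona, whose version is not given in the sources used here. The methods name BioScope for matching to the genome, a step not used here. Reads were counted here by the exon block that holds their start, with 3 bases of tolerance. Of 199684 blocks, 1108 lay on no GENCODE M1 gene, and the rest gave 20804 genes. Values are RPKM over 1000000 uniquely placed reads, and presence in a library required more than 0.01 RPKM and 2 start points. Counts equal those of the authors' reports. Ratios carry exact binomial intervals at the 95% level, levels exact Poisson intervals, and shares Wilson intervals. Amplified reads are not independent molecules, so these cover counting error only.

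The tissue effect was fitted with limma 3.58.1 in R 4.3.3, with precision weights, TMM factors and protocol as a term, over genes reaching 10 reads at the median depth in 2 libraries and 15 reads in all. It took the place of a planned negative binomial test, which was not run. P-values were adjusted by Benjamini-Hochberg over all genes tested at a threshold of 0.05. The p-values rest on a spread taken largely from all genes, with 1 residual degree of freedom from these libraries. That spread mixes protocol, mouse and library, and may be technical.

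The 8 genes and all lists were chosen with earlier results of these data known. Named genes are the members, up to 4 genes of each list with the highest mean RPKM, up to 3 with the largest cDNA ratio, and the 5 nearest profiles, of which the text gives a selection. Ifi27 had no exon block by that name. Alternatives tried were other scalings, start points, at most 1 mismatch, a penalty of 0.1 RPKM, genes present in both libraries, a 2-fold rule, unshared exon blocks, no filter, no protocol term and unweighted values. Promoters are from RefSeq and were located in mm9 by exact match. Proteins were not used here.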

Additional observations from a re-analysis of the deposited data

Results flagged for a closer look

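Ifit1 was higher in colon by cDNA fragmentation (ratio 1.13, 1.08 to 1.19) and lower in colon in the rRNA-depleted libraries (0.614, 0.485 to 0.778), so the protocols pointed in opposite directions. With TMM factors it was lower in colon by both protocols (log2 ratios -0.17 and -1.08). The difference was not tested, as there is 1 library of each kind.

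Irf7 was lower by cDNA fragmentation than in the rRNA-depleted library in small intestine (ratio 0.486, 0.423 to 0.560) and higher in colon (1.94, 1.77 to 2.14). With TMM factors the log2 ratios were -0.38 and 1.65. By start points they were -0.16 and 1.09, and the interval in small intestine included equality. This difference was not tested either.

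Reads across exon-exon junctions, which stand outside the counts above, gave signal over the floor of 3 reads. In cDNA fragmented small intestine, Usp18 had 22, Irf7 8, Ifit1 7 and Oasl2 6 junction reads. In cDNA fragmented colon, Irf7 had 50, Usp18 11, Ifit3 4 and Oasl2 4 of them. In rRNA-depleted colon, Irf7 had 9. By these reads, Irf7 was at 5.67 times (2.67 to 13.8) and Usp18 at 0.453 times (0.198 to 0.975) the small intestine level in cDNA fragmented colon.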

How the results depend on the processing

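Counting start points in place of reads left 0 members past the 3-fold rule between the tissues by cDNA fragmentation, where Irf7 had been the 1 called, and gave 1 (Usp18) in the rRNA-depleted libraries, where a 2-fold rule without penalty gave 3 (Isg15, Usp18 and Oasl2). Between the protocols in small intestine, 3 members (Ifit2, Ifit3 and Usp18) instead of 1 passed with median-of-ratios factors, TMM factors, start points or a penalty of 0.1 RPKM, and 4 with the 2-fold rule. Over all genes, the share called went from 5.93% and 10.3% between the tissues (cDNA fragmented and rRNA-depleted) to 12.5% and 23.2% with the 0.1 RPKM penalty and 35.8% and 40.1% with the 2-fold rule, and between the protocols from 19.9% and 20.1% (small intestine and colon) to 36.6% and 34.9% and to 60.7% and 60.1%. Of 32 alternatives to these counts, the other 24 were within 1.5 times. Those with unshared exon blocks could not change the members, since none of their blocks is shared with another gene. Those with genes present in both libraries could not either, since that filter was applied only to the share of all genes. The log2 ratio of Ifit1 between the tissues by cDNA fragmentation turned to -0.14 with median-of-ratios factors and -0.17 with TMM factors.

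The number of genes called by limma was 0 with no protocol term (762 at an unadjusted p under 0.05) and between 1544 and 2159 under the other 6 alternatives. Ifit2 and Ifit3, not called at any setting, turned from 0.28 and 0.30 to -0.072 and -0.22 with no protocol term, and to -0.044 and -0.15 with unweighted values. With 1 library left out, the protocol term leaves no residual degrees of freedom and hence no test. The values then ranged from -0.59 to 0.50 in Ifit2, from -0.79 to 0.49 in Ifit3 and from -0.18 to 1.84 in Irf7, and kept their direction in the other 5 members. The fit without weights, library totals in limma and libraries left out were chosen after seeing the data. A test by edgeR was planned, but neither it nor DESeq2 was run, and limma was fitted to the reads counted here in its place. By start points, 59.0% and 54.6% of the members' start points lay beyond the exon midpoint in small intestine and colon by cDNA fragmentation. The causes of these shifts were not tested. The protocol term already compares the tissues within each protocol, and no pairing by replicate number could be added, since the labels give none. Depth limits Ifit2, Ifit3, Isg15, Usp18 and Rsad2 in the rRNA-depleted libraries, at 59 reads or fewer.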
